A study of Mus musculus with 144 samples.

Results

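*Selenbp1*, *Xdh*, *Dclk3* and *Ecel1* are 4 of the 55359 genes counted in cultured mouse hepatocytes, and they lie outside the set usually used as readouts of the aryl hydrocarbon receptor (AHR). They were chosen by measured values, because their counts differed between TCDD and vehicle at 8 or 12 h, so their values at those 2 time points are given as a description without a test, and tests were run at the other 7 time points. Primary hepatocytes from livers of male mice, 28 days of age, were cultured with 10 nM TCDD (2,3,7,8-tetrachlorodibenzo-p-dioxin) or with dimethyl sulfoxide vehicle (0 nM TCDD). RNA-Seq libraries were made after 2, 4, 8 and 12 h and then daily from 24 to 120 h (9 time points), with 4 libraries in each of 36 groups of 1 genotype label, treatment and time, numbered as replicates in accession order. Of the libraries, 72 carry the genotype label wild-type and the strain C57BL/6NCrl (WT), and 72 carry the genotype label DRE-null and the strain Pkm-delta-DRE (PkmΔDRE), in which a dioxin response element (DRE) of the *Pkm* gene was deleted in the germ line. All cultures, vehicle included, were kept on collagen in Williams E medium with dexamethasone. The labels name no animal, isolation or batch, so the p-values measure the spread between these libraries, which may be technical.

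AHR is a ligand-activated transcription factor. TCDD is among its most potent ligands and is degraded very slowly, so that the receptor remains occupied, moves to the nucleus, pairs with ARNT and binds DREs, whose core is GCGTG. In the liver its best known targets are cytochrome P450 genes such as *Cyp1a1*. The 4 genes described here encode enzymes of other kinds. *Selenbp1* encodes a selenium-binding methanethiol oxidase, which converts methanethiol to hydrogen sulfide, hydrogen peroxide and formaldehyde. *Xdh* encodes xanthine oxidoreductase, the molybdenum enzyme that makes uric acid in the last steps of purine breakdown. *Dclk3* encodes a protein kinase of the doublecortin-like family, and *Ecel1* a membrane metallopeptidase of the neprilysin and endothelin-converting enzyme family that is known mainly from neurons.

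The genes are placed by the GRCm38 annotation. *Selenbp1* (ENSMUSG00000068874) spans chr3:94933056-94944758 on the plus strand, *Xdh* (ENSMUSG00000024066) chr17:73883895-73950196 on the minus strand, *Dclk3* (ENSMUSG00000032500) chr9:111439081-111489118 on the plus strand and *Ecel1* (ENSMUSG00000026247) chr1:87147655-87156521 on the minus strand. A processed pseudogene lies inside the span of *Xdh* without touching its exons. RefSeq promoter windows of GRCm38.p6, which run from 250 bases before the transcription start to 50 bases after it, were found for *Selenbp1*, for its paralog *Selenbp2* and for *Ecel1*. Both paralogs are shown because the windows are alike in sequence while the counts of the genes were not, and *Ecel1* is shown beside them for contrast. Windows for *Xdh* and *Dclk3* were not used here. Each is printed 5′ to 3′ on the strand of the gene, with each match to the core GCGTG, or to its reverse complement CACGC, in capitals.
Selenbp1 (chr3:94932833-94933132, plus strand): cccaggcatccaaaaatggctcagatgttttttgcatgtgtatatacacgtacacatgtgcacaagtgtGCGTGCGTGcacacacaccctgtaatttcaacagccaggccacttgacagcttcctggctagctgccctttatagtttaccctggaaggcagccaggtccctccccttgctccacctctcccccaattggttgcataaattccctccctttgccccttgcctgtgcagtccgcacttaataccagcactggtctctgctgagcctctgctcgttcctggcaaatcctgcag
Selenbp2 (chr3:94693323-94693622, plus strand): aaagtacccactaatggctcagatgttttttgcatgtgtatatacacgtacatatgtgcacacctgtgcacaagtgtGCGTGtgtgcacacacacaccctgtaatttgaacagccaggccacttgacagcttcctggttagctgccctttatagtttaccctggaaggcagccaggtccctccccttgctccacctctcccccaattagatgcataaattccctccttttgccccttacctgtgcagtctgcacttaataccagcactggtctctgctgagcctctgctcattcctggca
Ecel1 (chr1:87156307-87156606, minus strand): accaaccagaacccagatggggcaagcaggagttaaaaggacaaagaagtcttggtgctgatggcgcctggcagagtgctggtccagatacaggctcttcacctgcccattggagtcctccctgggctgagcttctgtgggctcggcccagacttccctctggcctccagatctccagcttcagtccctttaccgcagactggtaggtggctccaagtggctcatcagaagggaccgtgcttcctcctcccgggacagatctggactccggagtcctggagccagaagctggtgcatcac
The *Selenbp1* window held 2 matches to the core, which share their last and first base and begin 181 and 177 bases before the transcription start. The *Selenbp2* window held 1 match, which begins 173 bases before the start, and the *Ecel1* window held 0. At least 1 match was present in 10639 of 32851 RefSeq windows of this length (32.4%) and at least 2 in 11.1%, so a match is common, and it is a description of the letters and not a binding site. The *Selenbp1* and *Selenbp2* windows were identical at 87.18% of aligned positions. Their longest protein-coding transcripts were identical at 98.14% of positions, and 6.97% of all windows of 150 bases in the *Selenbp1* transcript occurred without a mismatch in that of *Selenbp2*. Pairs that lie wholly in such stretches, of which the longest was 193 bases, map to more than 1 place and were not counted. How many pairs were lost in this way was not tested, so the values of both paralogs are uncertain for those parts.

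The libraries held between 13588848 and 30719161 counts on genes (median 18011825). Levels are given as CPM, the counts relative to library sizes that were scaled by the trimmed mean of M-values (TMM) across all libraries. Every sum of 5 hepatocyte markers lay between 3017 and 212002 CPM, against 8.65 to 319 CPM for 5 macrophage, 19.6 to 261 CPM for 4 endothelial, 0.162 to 149 CPM for 4 stellate and 6.93 to 373 CPM for 4 cholangiocyte markers, and none of these markers was at 0 in all libraries. Vehicle and TCDD libraries spanned similar ranges, and the part of other cells in the results was not tested. In bulk RNA, fewer cells of a type and less RNA per cell cannot be told apart. *Pkm*, whose DRE was the target of the deletion, was in every TCDD library above every vehicle library at 8, 12 and 48 h with the label PkmΔDRE and at no hour with the label WT. The groups labelled PkmΔDRE overlapped at the other 6 hours, and edgeR called the difference at none (adjusted p = 0.128 at 8 h and 0.129 at 12 h). With the label WT, *Pkm* was called lower with TCDD at 96 h (log2 fold change -0.73 ± 0.14, adjusted p = 0.00376). The counts per gene do not separate the isoforms of *Pkm*. At 8 h *Pkm* held 45, 55.3, 37.8 and 81.5 CPM in vehicle and 169, 109.2, 113.99 and 126.5 CPM in TCDD libraries labelled PkmΔDRE, and 80.8, 68.7, 58.2 and 41.8 CPM and 38.9, 51.6, 62.6 and 29.3 CPM in those labelled WT. The higher *Pkm* with TCDD at 8, 12 and 48 h thus lay under the label of the deletion. Whether the genotype labels of the libraries are right was not tested. Each group is named by the label of its libraries.

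Several libraries stood apart from the other libraries of their group. With the label WT, *Cyp1a1* held 3285 CPM in vehicle replicate 1 at 48 h, where the other vehicle libraries held at most 2.37 CPM. It held 1717 CPM in vehicle replicate 3 at 96 h, where the others held at most 114.1 CPM. In the other direction it held 29.2 CPM in TCDD replicate 4 at 72 h against at least 3386 CPM in the others, and 1.15 CPM in TCDD replicate 4 at 2 h against at least 6.24 CPM. The treatment label of these 4 libraries was thus at odds with the best known target of AHR. WT vehicle replicate 3 at 48 h and at 72 h had *Pkm* at 1193 and 2127 CPM, where the other vehicle libraries held at most 247 CPM at 48 h and 477 CPM at 72 h. With the label PkmΔDRE, vehicle replicate 4 at 4 h and at 96 h differed from the other libraries in *Alb*, which encodes albumin. *Alb* held 7957 CPM in the 4 h library against at least 92155 CPM in the others of its group, and 74152 CPM in the 96 h library against at most 12133 CPM in the others. TCDD comparisons of *Selenbp1*, *Xdh* and *Dclk3* that hold the libraries circled in the figures are given with and without them.

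**Figure D1:**
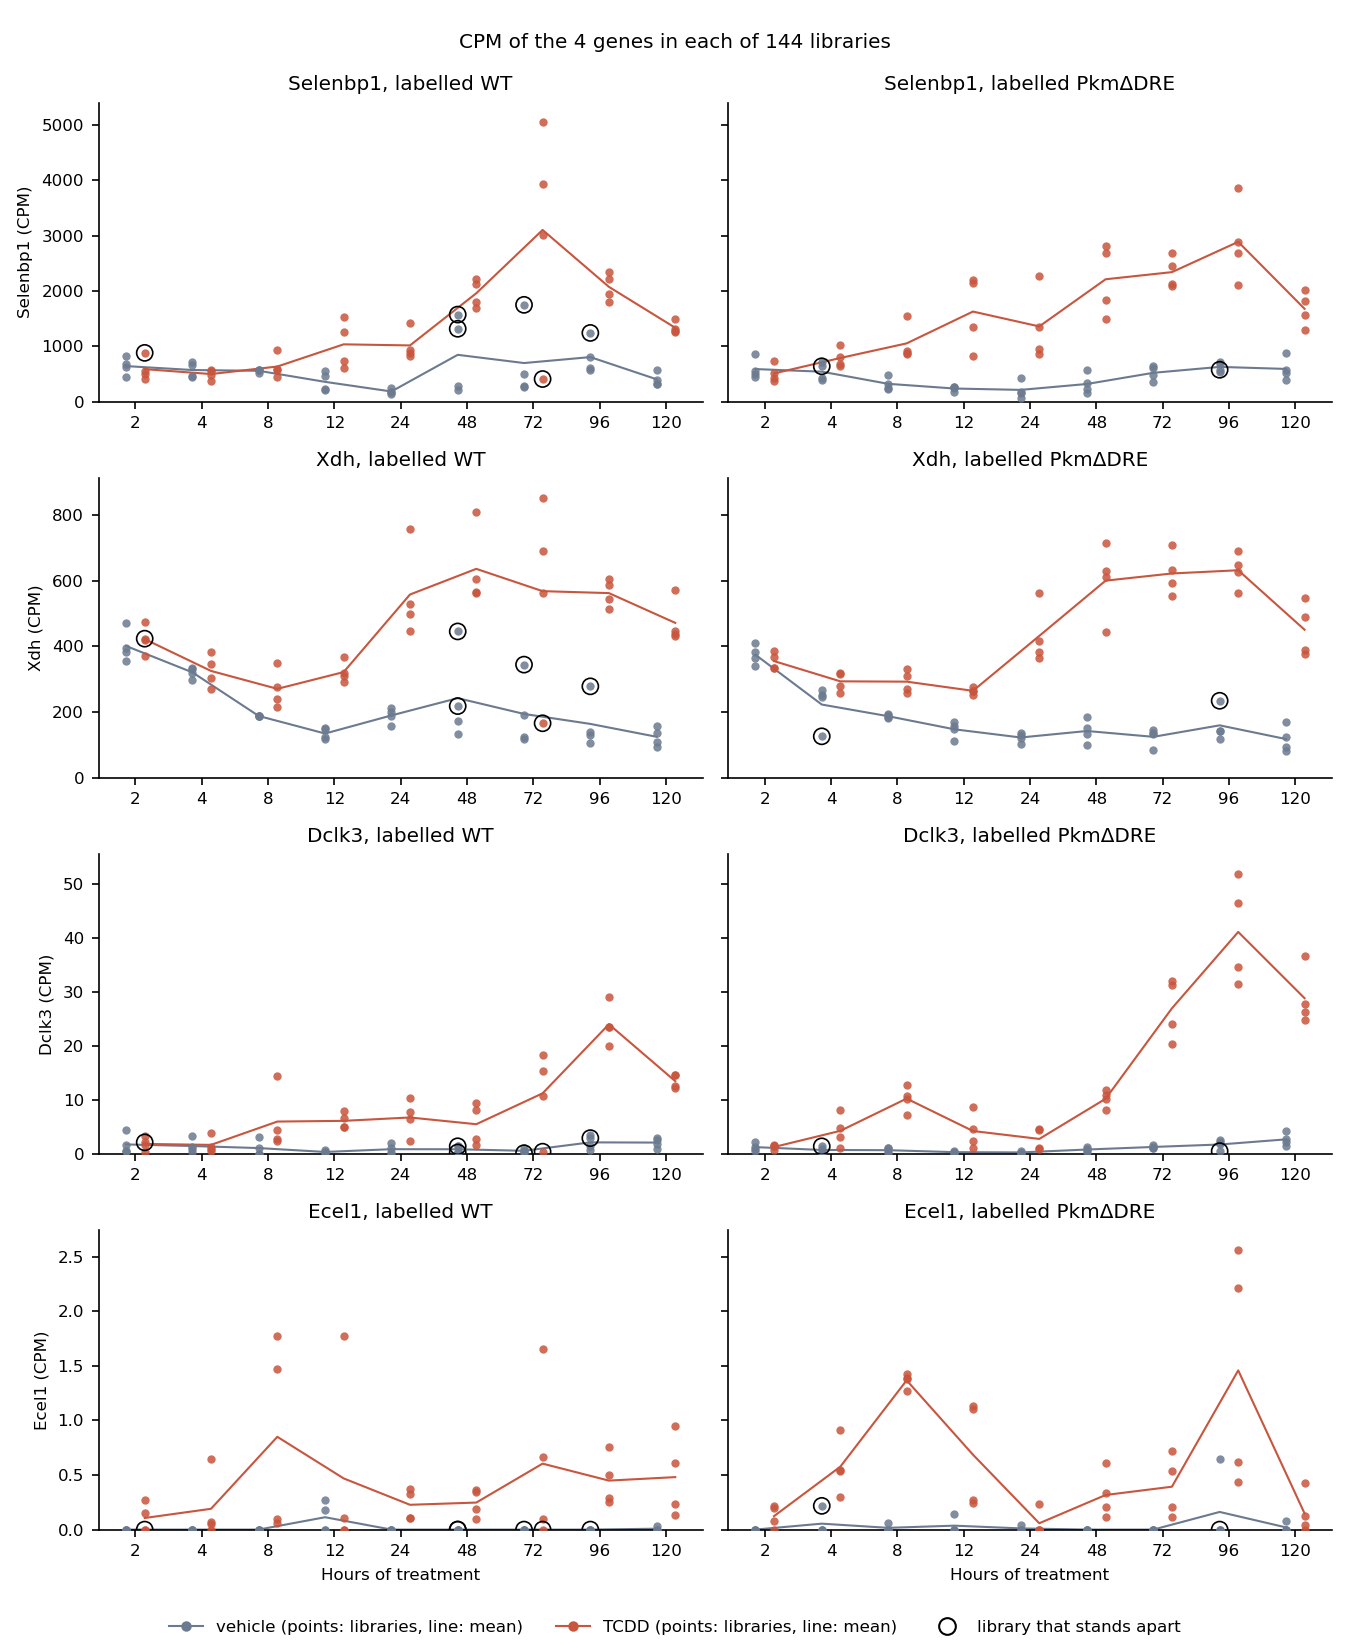
CPM of *Selenbp1*, *Xdh*, *Dclk3* and *Ecel1* (rows, linear axes from 0) by hours of treatment (equally spaced) in libraries labelled WT (left) and PkmΔDRE (right). Points are the 4 libraries of each group, lines join the group means, and circles mark the libraries that stood apart. Vehicle and TCDD points mix at 2 h and are apart in most groups from 24 h on.

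The first question is whether the difference between TCDD and vehicle that selected each gene was also present at the time points that did not select it. Across the 14 comparisons at those time points, *Selenbp1* was called in 7, *Xdh* in 6, *Dclk3* in 6 and *Ecel1* in 0 of the 1 in which it could be tested, each time higher with TCDD. DESeq2 called them in 8, 8, 7 and 0, and an unadjusted p under 0.05 (edgeR) was reached in 9, 10, 11 and 1. The calls of *Dclk3* at 48 and 96 h with the label PkmΔDRE followed a filter on low counts that it passed through its TCDD libraries. The same held at 4 and 24 h with that label and at 24, 48 and 72 h with the label WT. There *Dclk3* had an unadjusted p under 0.05 (edgeR) and was not called. *Ecel1* also passed through its TCDD libraries, so the counts of both genes that include these comparisons are a description. From 24 h on, every TCDD library was above every vehicle library in 9 of 10 comparisons for each of *Selenbp1*, *Xdh* and *Dclk3*, the exception being 72 h with the label WT, and in 6 of 10 for *Ecel1*. At 2 and 4 h this was so in 0 of 4 for the first 3 genes and in 1 of 4 for *Ecel1*. The share of all genes whose groups lay apart in this way was not computed, so these counts are a description. At 96 h with the label WT, 6109 of 13793 genes reached an unadjusted p under 0.05 (edgeR). The next largest share was that at 4 h with the label WT (2126 of 12434 genes). It was smallest at 24 h with the label PkmΔDRE (161 of 12481 genes). The share of all genes that DESeq2 called is not given here. A gene was called at an adjusted p under 0.05 (edgeR's quasi-likelihood test, Benjamini-Hochberg over all genes tested) and a fold change of at least 1.5. Over all genes tested, the same rule called 0% at 2 and 4 h with either label. At 24, 48, 72, 96 and 120 h, in this order, it called 0.373%, 0.00763%, 0%, 15.1% and 1.46% of them with the label WT and 0.016%, 0.404%, 1.13%, 0.0793% and 0.633% with the label PkmΔDRE. A call at 96 h with the label WT was thus common among all genes, and calls at the other hours were rare.

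With TCDD *Selenbp1* was called higher at 24, 96 and 120 h in libraries labelled WT and at 48 to 120 h in those labelled PkmΔDRE. At 2 h, libraries labelled WT held 442, 682, 633 and 822 CPM in vehicle and 408, 508, 560.4 and 883 CPM with TCDD, and at 4 h they held 443, 667, 472 and 713 CPM and 384, 567, 491 and 562 CPM. Vehicle and TCDD libraries overlapped at both hours. The fitted log2 fold change was -0.12 ± 0.27 (SE) at 2 h and -0.23 ± 0.19 at 4 h, with adjusted p-values of 1.00 and 0.484. Without WT TCDD replicate 4 the value at 2 h was -0.41 ± 0.20 (adjusted p = 0.296). With the label PkmΔDRE the values at 4 h were 712, 432, 391 and 641 CPM in vehicle and 1032, 686, 640.2 and 805 CPM with TCDD, a log2 fold change of 0.56 ± 0.27 (adjusted p = 0.957). Without PkmΔDRE vehicle replicate 4 it was 0.62 ± 0.22 and was not called.

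At 8 h, an hour that selected the genes, libraries labelled WT held 579, 573, 576 and 511 CPM in vehicle and 573, 589.7, 452 and 933 CPM with TCDD. The groups overlapped, and without TCDD replicate 4, the library with the most *Selenbp1*, the log2 fold change went from 0.15 to -0.084. Libraries labelled PkmΔDRE held 329, 247, 235 and 489 CPM and 1556, 886, 922 and 855 CPM at the same hour, with every TCDD library above every vehicle library and a ratio of means of 3.24. At 12 h the values were 205, 461, 223 and 553 CPM and 738, 1534, 618 and 1259 CPM for WT and 276, 179.8, 264 and 241 CPM and 2195, 823, 2139 and 1356 CPM for PkmΔDRE. The groups did not overlap with either label, and the ratio of means was 2.88 for WT and 6.78 for PkmΔDRE.

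At 24 h, which did not select the genes, *Selenbp1* held 181, 134.2, 181 and 251 CPM in WT vehicle and 1416, 886, 826 and 942 CPM in WT TCDD libraries. The lowest TCDD library was well above the highest vehicle library, and the log2 fold change was 2.53 ± 0.22 (adjusted p = 0.000584). Libraries labelled PkmΔDRE held 434, 185, 74.6 and 168 CPM and 2277, 857, 1349 and 959 CPM, which did not overlap either. Their log2 fold change was of similar size, 2.59 ± 0.52, but with the wider spread the unadjusted p of 0.000489 gave an adjusted p of 1.00 and no call.

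From 48 to 120 h, *Selenbp1* rose in all 4 comparisons with the label PkmΔDRE. The log2 fold change at 48 h was 2.71 ± 0.38 (adjusted p = 0.014), at 72 h 2.13 ± 0.24 (adjusted p = 0.000964), at 96 h 2.15 ± 0.29 (adjusted p = 0.0426) and at 120 h 1.48 ± 0.26 (adjusted p = 0.0398). At 96 h, where the gene was highest in this label, the values were 689.6, 531, 722 and 578 CPM in vehicle and 3861, 2692, 2890.3 and 2100.3 CPM with TCDD. No TCDD library came near a vehicle library. Without vehicle replicate 4, the library with high *Alb*, the log2 fold change was 2.11 ± 0.23 (adjusted p = 0.000704). The calls at 48, 96 and 120 h did not hold in every fit that left out 1 library. The call at 96 h was lost when any library but vehicle replicate 4 was left out (adjusted p = 0.126 to 0.235), that at 120 h when any but vehicle replicate 1 was left out (0.0678 to 0.131), and that at 48 h without TCDD replicate 1 or 3 or vehicle replicate 3 (0.0529 to 0.0785), while the log2 fold change stayed between 1.33 and 2.73 in all of these.

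With the label WT, *Selenbp1* rose at 96 and 120 h, by 1.43 ± 0.22 (adjusted p = 0.00163) and 1.72 ± 0.19 (adjusted p = 0.002) on the log2 scale. Without vehicle replicate 3 the value at 96 h was 1.71 ± 0.13 (adjusted p = 3.24e-05). At 48 and 72 h the gene was not called, and its groups held libraries that stood apart. Vehicle libraries held 1574, 279.9, 1318 and 220.3 CPM at 48 h, with replicates 1 and 3 the high pair, against 2217, 2118, 1799.9 and 1699 CPM with TCDD. At 72 h they held 278, 261, 1749 and 511 CPM, with replicate 3 the highest, against 3008, 3937, 5046 and 411 CPM with TCDD, with replicate 4 the lowest. The log2 fold change at 48 h was 1.25 ± 0.58 with all libraries, 1.73 ± 0.59 without vehicle replicate 1 and 1.55 ± 0.62 without vehicle replicate 3, and no call was made in any of these. At 72 h it was 2.16 ± 0.80 with all libraries, 2.53 ± 0.65 without TCDD replicate 4 (adjusted p = 0.396) and 3.18 ± 0.72 without vehicle replicate 3 (adjusted p = 0.824). In vehicle replicate 1 at 48 h the high *Selenbp1* went with high *Cyp1a1*, and in vehicle replicate 3 at 48 and 72 h with high *Pkm* and with *Cyp1a1* at 2.37 and 22.5 CPM.

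Among TCDD groups, the mean level of *Selenbp1* was highest at 72 h with the label WT (3101 ± 1977 CPM, SD, n = 4) and at 96 h with the label PkmΔDRE (2886 ± 732 CPM). Of the 8 pairs of neighbours in the order of the TCDD group means, 2 differed by more than the larger SD with the label WT and 1 with the label PkmΔDRE, so most neighbouring time points could not be ranked.

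**Figure D2:**
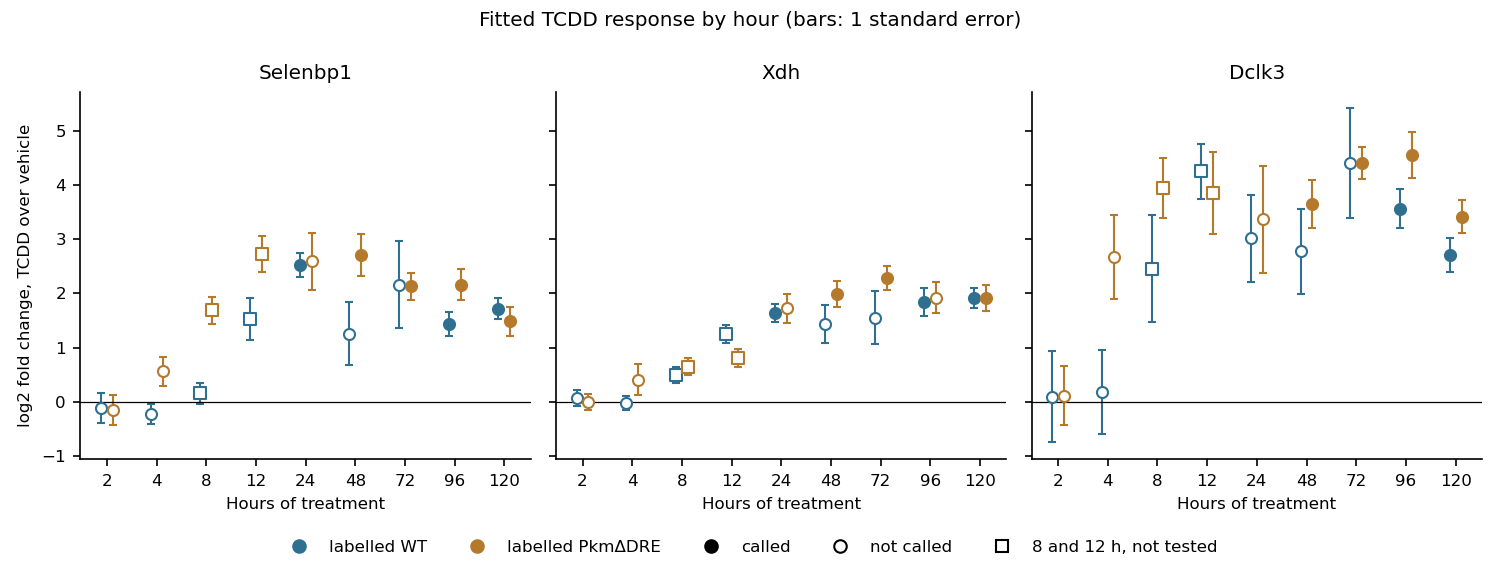
Fitted log2 fold change of TCDD over vehicle for *Selenbp1*, *Xdh* and *Dclk3* by hours of treatment (equally spaced), with bars of 1 standard error. Filled circles are called, open circles are tested and not called, and squares are the hours that selected the genes and were not tested. Values lie near 0 at 2 h and between 1.25 and 4.55 from 24 h on.

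*Selenbp2* served as a check on reads that the paralogs could share. Its groups overlapped in all 14 comparisons, and it was called in 0 of them (edgeR and DESeq2), with an unadjusted p under 0.05 in 0 by edgeR and in 1 by DESeq2. At 24 h with the label WT, where *Selenbp1* had risen, *Selenbp2* held 778, 628, 412 and 603 CPM in vehicle and 543, 444, 273 and 379 CPM with TCDD. In WT replicate 3 *Selenbp2* was the lowest of its group with both treatments at 2, 4, 12, 24, 48 and 72 h. At 2 h its groups held 3649.8, 4581, 426 and 889 CPM in vehicle and 3322, 3043, 377 and 2386 CPM with TCDD. *Selenbp2* fell with time in culture in vehicle libraries. Its mean went from 2386 ± 2041 CPM at 2 h to 53.5 ± 34.8 CPM at 120 h with the label WT and from 1514 ± 490.3 to 37.1 ± 21.7 CPM with the label PkmΔDRE. The log2 change from 2 to 24 h was -2.23 ± 0.60 for WT and -2.55 ± 0.39 for PkmΔDRE, and from 24 to 120 h it was -3.54 ± 0.46 and -2.83 ± 0.51, all called.

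**Figure D3:**
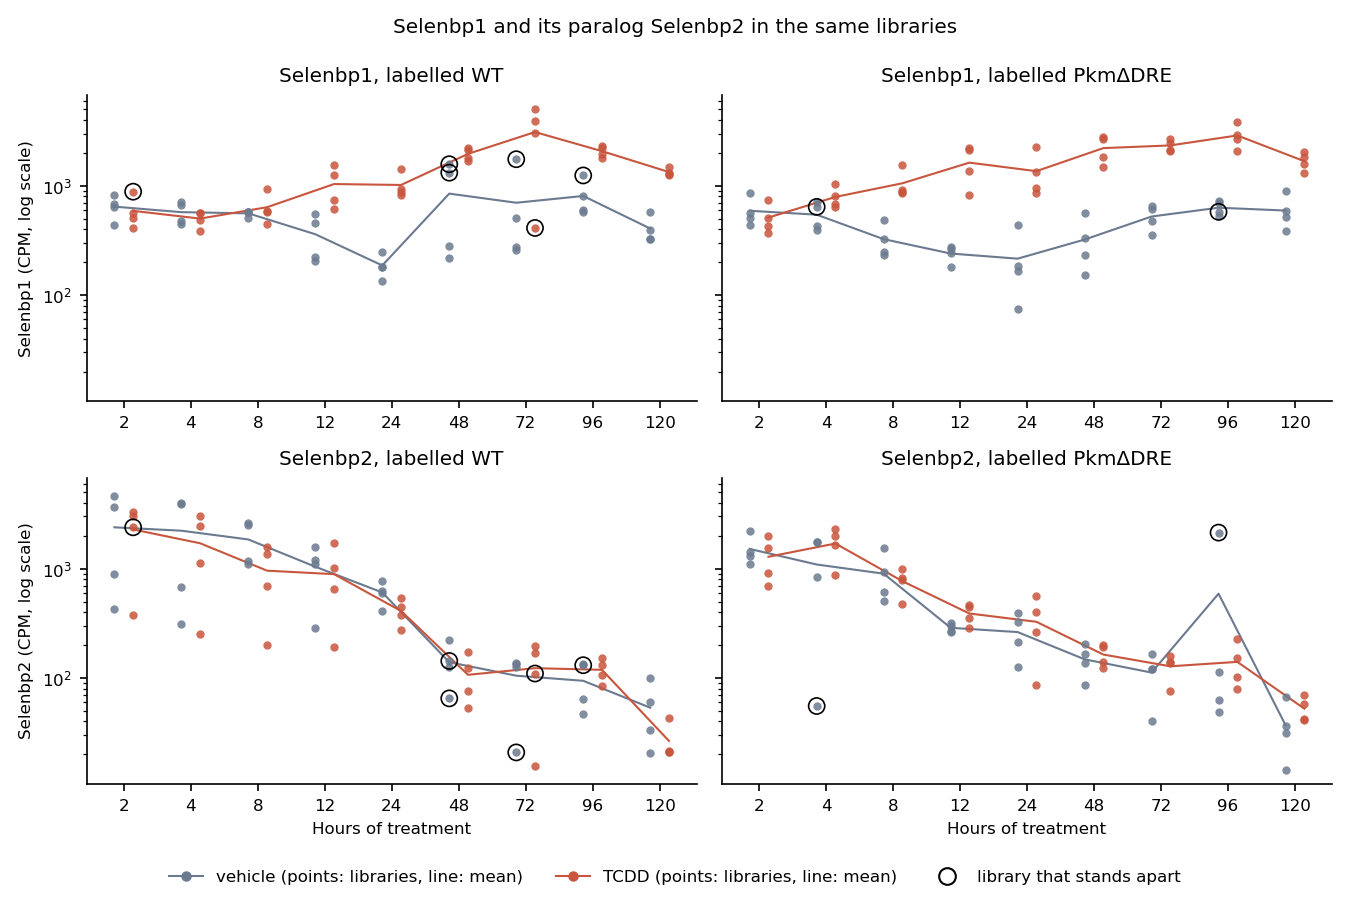
CPM (log axes) of *Selenbp1* (top) and *Selenbp2* (bottom) by hours of treatment (equally spaced) in libraries labelled WT (left) and PkmΔDRE (right). Points are libraries, lines join group means and circles mark libraries that stood apart. Vehicle and TCDD points of *Selenbp1* mix at 2 and 4 h and, with the label WT, at 8 and 72 h, and are apart at the other hours, and the *Selenbp2* means are lower at later hours in both treatments, apart from PkmΔDRE vehicle replicate 4 at 4 and 96 h.

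*Xdh* was called higher with TCDD at 24, 96 and 120 h in libraries labelled WT and at 48, 72 and 120 h in those labelled PkmΔDRE, by 3.11 to 4.88-fold. At 8 h, WT vehicle libraries held 188, 188, 189 and 187 CPM and TCDD libraries 215, 239.8, 277 and 351 CPM. PkmΔDRE libraries held 182, 193, 184 and 191 CPM and 259, 269, 311 and 332 CPM. The groups did not overlap with either label, and the ratios of means were 1.44 and 1.56. At 12 h the ratios were 2.39 and 1.79, again without overlap. Before that, at 2 and 4 h, the log2 fold changes lay between -0.02 and 0.41 and the groups overlapped in all 4 comparisons. At 2 h with the label WT it was 0.07 ± 0.15 with all libraries and 0.05 ± 0.13 without TCDD replicate 4. At 4 h with the label PkmΔDRE the vehicle libraries held 253, 266, 246 and 126.2 CPM, the last of which was the library with low *Alb*, and the log2 fold change went from 0.41 ± 0.29 to 0.19 ± 0.15 without it.

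At 24 h *Xdh* held 199, 189, 158 and 214 CPM in WT vehicle and 757, 530.3, 448 and 497 CPM in WT TCDD libraries, a log2 fold change of 1.64 ± 0.17 (adjusted p = 0.00222). With the label PkmΔDRE it held 129.5, 136.4, 102.5 and 122.05 CPM and 562, 365, 418 and 384 CPM, a log2 fold change of 1.72 ± 0.26 (adjusted p = 0.189). Every TCDD library was above every vehicle library with either label. At 120 h, the last time point, the groups were 93.4, 159, 137.05 and 109.9 against 432, 437, 571 and 447 CPM for WT and 93.1, 82.2, 125.6 and 170.5 against 377, 388, 549 and 489 CPM for PkmΔDRE. The log2 fold changes were nearly equal, 1.92 ± 0.18 (adjusted p = 0.000898) and 1.91 ± 0.24 (adjusted p = 0.00558).

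*Xdh* was also called at 96 h with the label WT (1.84 ± 0.26, adjusted p = 0.00133, or 2.21 ± 0.11 without vehicle replicate 3) and at 48 and 72 h with the label PkmΔDRE (1.99 ± 0.24, adjusted p = 0.0045, and 2.29 ± 0.22, adjusted p = 0.000326). It was not called at 96 h with the label PkmΔDRE, where vehicle libraries held 143.8, 118.3, 141.97 and 234 CPM and TCDD libraries 647, 627, 689 and 564 CPM. The last vehicle value is that of the library with high *Alb*. Without it the log2 fold change went from 1.92 ± 0.29 (adjusted p = 0.0811) to 2.19 ± 0.16 (adjusted p = 3.18e-05) and the gene was called. At 48 and 72 h with the label WT the log2 fold changes were 1.43 ± 0.35 and 1.55 ± 0.50, and were not called. Vehicle replicate 1 held 446 CPM among the 48 h vehicle libraries, whose others held at most 218 CPM, and without it the log2 fold change was 1.90 ± 0.25 (adjusted p = 0.0515). TCDD replicate 4 held 166 CPM among the 72 h TCDD libraries, whose others held at least 564 CPM, and without it the log2 fold change was 1.86 ± 0.38 (adjusted p = 0.214). Without vehicle replicate 3 it was 1.39 ± 0.40 at 48 h and 1.99 ± 0.48 at 72 h, and no call was made.

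The TCDD group means of *Xdh* were not tested between hours. With TMM scaling they were lowest at 8 or 12 h and highest at 48 to 96 h. The group means were 422 ± 42.9 CPM at 2 h and 271 ± 59.2 CPM at 8 h with the label WT and 355 ± 26 and 265 ± 10.3 CPM at 2 and 12 h with the label PkmΔDRE. Without the TMM factor these groups overlapped. WT TCDD libraries then held 260, 285, 320 and 247 CPM at 2 h and 169, 242, 295 and 349 CPM at 8 h. PkmΔDRE TCDD libraries held 214, 289, 260 and 220 CPM at 2 h and 201, 320, 189 and 253 CPM at 12 h. The fall from 2 h thus rests on the scaling. At 48, 72 and 96 h the scaled group means were 636 ± 117.1, 568 ± 293 and 562 ± 41.7 CPM with the label WT and 600.3 ± 113.97, 622 ± 67 and 632 ± 52.2 CPM with the label PkmΔDRE (SD, n = 4), and these neighbours in the order did not differ by more than the larger SD. In all, 1 of 8 pairs of neighbours differed by more than that with the label WT and 2 with the label PkmΔDRE.

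*Dclk3* was low in vehicle, and with TCDD it was called higher at 96 and 120 h in libraries labelled WT and from 48 to 120 h in those labelled PkmΔDRE, with log2 fold changes from 2.71 to 4.55. Its vehicle libraries held between 0 and 4.36 CPM, with 4 of 72 at 0, and its TCDD libraries between 0.269 and 51.8 CPM. At 8 h the values were 0, 0, 0.997 and 3.15 CPM in WT vehicle and 2.71, 4.43, 2.29 and 14.4 CPM in WT TCDD libraries, which overlapped, and 1.01, 0.511, 1 and 0.0635 CPM and 10.7, 7.21, 12.7 and 10.2 CPM in those labelled PkmΔDRE, which did not. At 12 h they were 0.603, 0.361, 0.228 and 0.0908 against 6.56, 4.86, 4.9 and 7.99 CPM and 0.113, 0.24, 0.577 and 0.188 against 1.08, 8.7, 2.43 and 4.58 CPM, without overlap in either label. With the label PkmΔDRE its TCDD mean was 10.2 ± 2.27 CPM at 8 h, 2.73 ± 2.05 CPM at 24 h and 41.1 ± 9.66 CPM at 96 h.

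*Dclk3* was called higher in 4 of the 5 comparisons from 24 h on with the label PkmΔDRE. The log2 fold change at 48 h was 3.65 ± 0.45 (adjusted p = 0.00463), at 72 h 4.40 ± 0.29 (adjusted p = 2.45e-05), at 96 h 4.55 ± 0.43 (adjusted p = 0.00495) and at 120 h 3.41 ± 0.31 (adjusted p = 0.000586). At 96 h the vehicle libraries held 1.74, 2.1, 2.48 and 0.472 CPM and the TCDD libraries 46.5, 34.6, 51.8 and 31.4 CPM. Without vehicle replicate 4 the value at 96 h was 4.23 ± 0.26 (adjusted p = 1.31e-05), and without vehicle replicate 1 the call was lost (adjusted p = 0.056). The vehicle libraries held 0, 5, 11 and 3 pairs at 24 h, 5, 16, 17 and 25 at 48 h and 38, 48, 69 and 6 at 96 h. That *Dclk3* passed the filter on low counts at these hours depended on its TCDD libraries. At 24 h the log2 fold change was 3.36 ± 0.98, with an unadjusted p of 0.00605 (edgeR) and an adjusted p of 1.00. Vehicle libraries held 0, 0.216, 0.537 and 0.169 CPM and TCDD libraries 4.62, 0.992, 4.38 and 0.927 CPM, which did not overlap.

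With the label WT, *Dclk3* rose at 96 h (3.56 ± 0.36, adjusted p = 0.000271) and at 120 h (2.71 ± 0.31, adjusted p = 0.00286). At 72 h its TCDD libraries held 18.3, 15.4, 10.7 and 0.366 CPM, the last of which was the library with low *Cyp1a1*, and its vehicle libraries 0.476, 0.507, 0.0878 and 1.06 CPM. The log2 fold change was 4.40 ± 1.01 (adjusted p = 1.00) with all libraries and 4.81 ± 0.59 (adjusted p = 0.0248) without that library, which makes the gene called at that hour too. WT vehicle replicate 1 at 48 h, which was high in *Cyp1a1*, *Selenbp1* and *Xdh*, was not high in *Dclk3*, at 1.37 CPM where the other 48 h vehicle libraries held up to 1.45 CPM. The log2 fold change at 48 h was 2.77 ± 0.78 with all libraries, 3.13 ± 0.90 without vehicle replicate 1 and 2.47 ± 0.78 without vehicle replicate 3, with no call in any. Without vehicle replicate 3 the value at 72 h was 4.05 ± 1.02, not called, and that at 96 h was 3.75 ± 0.40 (adjusted p = 0.000461). At 2 h it was 0.09 ± 0.85, and -0.0045 ± 0.94 without TCDD replicate 4. At 4 h the PkmΔDRE libraries held 0.908, 0.313, 0.164 and 1.36 CPM in vehicle and 1.08, 4.72, 8.02 and 3.08 CPM with TCDD, which overlapped, and the log2 fold change of 2.67 ± 0.78 was not called (adjusted p = 0.957), nor was that of 3.17 ± 0.79 without vehicle replicate 4.

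*Ecel1* was detected almost solely in TCDD libraries and at very low counts. Of the 72 vehicle libraries 63 held no pair on the gene, which allows up to 3 pairs in each, and all 72 together held 40. Of the 72 TCDD libraries 11 held none, and all 72 together held 705. The highest library (PkmΔDRE, TCDD, 96 h) held 2.56 CPM. The gene passed the filter on low counts in 1 of the 14 tested comparisons, PkmΔDRE at 96 h, where vehicle libraries held 0, 0, 0.646 and 0 CPM and TCDD libraries 0.622, 0.435, 2.56 and 2.21 CPM. The groups overlapped and the log2 fold change of 2.95 ± 1.20 was not called (adjusted p = 0.667, unadjusted p = 0.0359). That the gene passed there depended on its TCDD libraries, so the 1 tested comparison does not stand for the others.

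At 8 h, where it was selected, *Ecel1* held 1.27, 1.39, 1.38 and 1.43 CPM in the PkmΔDRE TCDD libraries and 1 pair in all 4 vehicle libraries, and 0.0936, 0.0641, 1.47 and 1.77 CPM in the WT TCDD libraries and 0 in the vehicle libraries. The 4 PkmΔDRE values were close to each other and the WT values were not. For the 13 comparisons outside the filter, the difference of mean CPM was compared with all 70 ways to divide 8 libraries (exact permutation test, two-sided). In 7 of the 13 every TCDD library was above every vehicle library, which gives the smallest p that 4 against 4 libraries allow (exact permutation p = 0.0286), and adjusted over the 13 it was 0.0531, so none passed the threshold. At 96 h with the label WT, TCDD libraries held 0.754, 0.499, 0.291 and 0.25 CPM and vehicle libraries 0, so the mean was at least 13.1-fold higher when the vehicle group is set to its floor of 3 counts. At 24 h with the label PkmΔDRE, 3 of 4 TCDD libraries held 0. In WT TCDD replicate 4 at 72 h, the library with low *Cyp1a1*, *Ecel1* was at 0, while the other 72 h TCDD libraries held 0.0968 to 1.66 CPM.

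The same libraries can be compared across the genes per length of exon. At 96 h with TCDD and the label PkmΔDRE, the mean level was 1269.7 CPM per kb for *Selenbp1*, 68.9 for *Xdh*, 13.7 for *Dclk3* and 0.417 for *Ecel1*. In the vehicle libraries of that group it was 277, 17.4, 0.565 and 0.0462 CPM per kb. The order of the 4 genes was the same with and without TCDD.

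The second question is whether the response to TCDD differed between the labels. The difference in log2 fold change, PkmΔDRE minus WT, was tested at the same 7 hours as an interaction in the 16 libraries of each hour. Over all genes the rule called 0% at 2, 4, 24, 96 and 120 h, 0.00715% at 48 h and 0.00695% at 72 h. *Selenbp1*, *Xdh* and *Dclk3* were called in 0 of 7 and *Ecel1*, which passed the filter in 2, in 0 (edgeR and DESeq2). At an unadjusted p under 0.05 there was 1 of 7 for *Selenbp1*, 0 for *Xdh* and 1 for *Dclk3*, both at 4 h, where 1186 of 13214 genes reached it (edgeR). *Selenbp1* differed there by 0.79 ± 0.33 (unadjusted p = 0.027, adjusted p = 0.526, edgeR) and *Dclk3* by 2.50 ± 1.14 (unadjusted p = 0.043, adjusted p = 0.526, edgeR). Without PkmΔDRE vehicle replicate 4 they differed by 0.87 ± 0.32 and 3.01 ± 1.17, not called. For *Xdh* the interaction lay between -0.10 and 0.73, with standard errors of 0.20 to 0.54. At 8 h, described without a test, *Selenbp1* was 1.14 times the vehicle mean with the label WT and 3.24 times with the label PkmΔDRE.

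The vehicle libraries show how the genes behaved in culture without TCDD. Between 2 and 24 h the rule called 47.9% of all genes with the label WT and 30.7% with the label PkmΔDRE, and between 24 and 120 h it called 45.5% and 15%, so a call says little about a single gene. The median log2 change of all genes was 0.06 and 0.36 from 2 to 24 h and 0.08 in both labels from 24 to 120 h. *Selenbp1* fell from 2 to 24 h, with log2 changes of -2.02 ± 0.23 (WT, adjusted p = 1.97e-05) and -1.51 ± 0.44 (PkmΔDRE, adjusted p = 0.0252). From 24 to 120 h it rose by 1.08 ± 0.24 with the label WT (adjusted p = 0.00454), and with the label PkmΔDRE the change of 1.48 ± 0.48 was not called (adjusted p = 0.0618). Its lowest vehicle group means were thus those at 24 h, 187 ± 47.9 CPM for WT and 216 ± 154 CPM for PkmΔDRE, and the log2 fold changes with TCDD at that hour were 2.53 and 2.59. The fall from 2 to 24 h with the label PkmΔDRE lost its call without vehicle replicates 1 or 3 at 2 h or 2 at 24 h (adjusted p = 0.0550 to 0.0795), and the change from 24 to 120 h was called without replicate 1 at 24 h (adjusted p = 0.0203). These sizes rest on the scaling, because without the TMM factor the ratio of *Selenbp1* means from 2 to 24 h was -1.13 (WT) and -0.74 (PkmΔDRE) on the log2 scale and that from 24 to 120 h was 1.53 and 1.89.

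*Xdh* fell in vehicle from 2 to 24 h, with log2 changes of -1.31 ± 0.14 (WT, adjusted p = 1.36e-05) and -1.56 ± 0.24 (PkmΔDRE, adjusted p = 0.000728). From 24 to 120 h it fell with the label WT (-0.65 ± 0.19, adjusted p = 0.0148) and the change with the label PkmΔDRE was -0.06 ± 0.30 (adjusted p = 0.908). The former fell short of 1.5-fold without replicates 1 or 4 at 120 h or 4 at 24 h. These sizes rest on the scaling, because without the TMM factor the ratio of *Xdh* means from 2 to 24 h was -0.43 and -0.82 on the log2 scale and that from 24 to 120 h was -0.22 and 0.30, the last with the opposite sign. *Dclk3* rose from 24 to 120 h with the label PkmΔDRE (3.46 ± 0.89, adjusted p = 0.0249), from 0, 0.216, 0.537 and 0.169 to 1.45, 2.22, 2.64 and 4.28 CPM, and with the label WT the change was 1.24 ± 0.82 (adjusted p = 0.226). The call was lost without replicates 2, 3 or 4 at 120 h or 2 at 24 h (adjusted p = 0.0525 to 0.0847). *Ecel1* did not pass the filter in any of these comparisons.

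In vehicle libraries, no difference between the labels was called for any of the 4 genes at the 7 tested hours, where the rule called 0% of all genes. *Ecel1* passed the filter at none of them and *Dclk3* at 6. By unadjusted p under 0.05 there was 0 of 7 for *Selenbp1*, 1 of 7 for *Xdh* and 0 of 6 for *Dclk3*, and DESeq2 called 0 as well. For *Xdh* that was 24 h, where PkmΔDRE minus WT was -0.56 ± 0.21 (edgeR, unadjusted p = 0.0242, adjusted p = 0.981). Of all genes, 454 of 12843 reached an unadjusted p under 0.05 (edgeR) in that comparison. For *Selenbp1* the difference ranged from -1.40 at 48 h, where WT vehicle replicates 1 and 3 were high, to 0.58 at 120 h.

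Genes whose differences ran most like those of each member were sought over 18 values, the TCDD minus vehicle difference of mean log2(CPM + 1) in each label and hour, among 12898 other genes. For *Selenbp1* they were *Htatip2* (Pearson r = 0.931), *Cbr3* (0.924) and *Josd1* (0.903). For *Xdh* they included *Lrp4* (0.951) and *Tnfaip2* (0.945). For *Dclk3* they included *Lrp4* (0.897) and *N4bp2l1* (0.873), so *Lrp4* was near both. For *Ecel1* the likeness was weaker, at 0.673 for *Col9a2*, 0.665 for *Pcgf1* and 0.653 for *Asb11*. Between the members, r was 0.794 for *Selenbp1* and *Xdh*, 0.815 for *Xdh* and *Dclk3* and 0.659 for *Selenbp1* and *Dclk3*, and at most 0.514 with *Ecel1*. With *Cyp1a1* it was 0.742 for *Selenbp1*, 0.456 for *Xdh* and 0.513 for *Dclk3*, and *Selenbp1* and *Selenbp2* had r = 0.0973. These 18 values share hours, libraries and scaling, and the hours that selected the members are among them, so r is a description.

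Other genes of the pathways and families of the 4 members were called in few comparisons. Over the 14 comparisons, all genes together were called in 1.45% of the gene comparisons tested (1794 higher and 859 lower with TCDD), and the median log2 fold change was -0.01. Of 13 genes of purine degradation, the pathway that *Xdh* belongs to, 12 were tested, and they were called higher in 4 and lower in 1 of 157 gene comparisons (3.18%), with a median of 0.01. *Uox*, which oxidizes the uric acid that *Xdh* makes, rose at 72 h with the label PkmΔDRE (1.61 ± 0.34, adjusted p = 0.0446) and at 96 h with the label WT (1.20 ± 0.18, adjusted p = 0.000932). At 96 h with the label PkmΔDRE its log2 fold change was -3.16 ± 1.58, not called (edgeR, adjusted p = 0.699). That comparison holds the vehicle library with high *Alb*. *Nt5e* and *Nt5c2*, which encode nucleotidases, rose at 96 h with the label WT, by 0.91 ± 0.21 (adjusted p = 0.01) and 0.70 ± 0.15 (adjusted p = 0.00515). *Pnp*, which encodes purine nucleoside phosphorylase and was named after its value was seen, fell there (-0.64 ± 0.16, adjusted p = 0.013). At 96 h with the label WT, 15.1% of all genes were called.

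Of 12 molybdenum enzymes and genes of their cofactor 8 were tested, and 1 of them was called, higher in 3 gene comparisons (2.68% of those tested), with a median of 0.06 over the list. It was *Aox3*, an aldehyde oxidase that needs the same cofactor as *Xdh*, which rose at 72 h with the label PkmΔDRE (2.45 ± 0.42, adjusted p = 0.015) and at 96 and 120 h with the label WT (2.14 ± 0.18, adjusted p = 7.01e-05, and 2.16 ± 0.25, adjusted p = 0.00326). The cofactor genes *Mocs1*, *Mocs2*, *Mocs3*, *Mocos* and *Gphn* were tested in all 14 and called in 0 of them.

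Of 7 genes listed around *Selenbp1*, namely *Selenbp2* and genes of sulfide handling, all were tested and 2 were called, lower in 2 of 98 gene comparisons (2.04%), with a median of -0.17. They were *Tst*, a thiosulfate sulfurtransferase (-0.94 ± 0.11, adjusted p = 0.000249), and *Cbs*, which encodes cystathionine beta-synthase (-0.72 ± 0.21, adjusted p = 0.0244), both at 96 h with the label WT, where 15.1% of all genes were called. In the doublecortin family only *Dclk2* of 3 genes was tested, in 13 comparisons, and it was called in 0 of them, with a median of 0.32. In the neprilysin family 2 of 6 genes were tested, *Ece1* and *Mme*, and they were called in 0 of 28 gene comparisons, with a median of -0.09. The 6 genes of the AHR battery, used here to check the treatment labels, were called in 38 of 75 gene comparisons (50.7%), all higher. Of the 14 comparisons, *Cyp1b1* passed the filter on low counts in 10 and *Ahrr* in 9, and they were called in 8 and 7. Their log2 fold changes there were 6.85 to 14.3 and 7.04 to 11.8. Genes with such differences can pass the filter through TCDD libraries alone, so this share is a description.

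**Figure D4:**
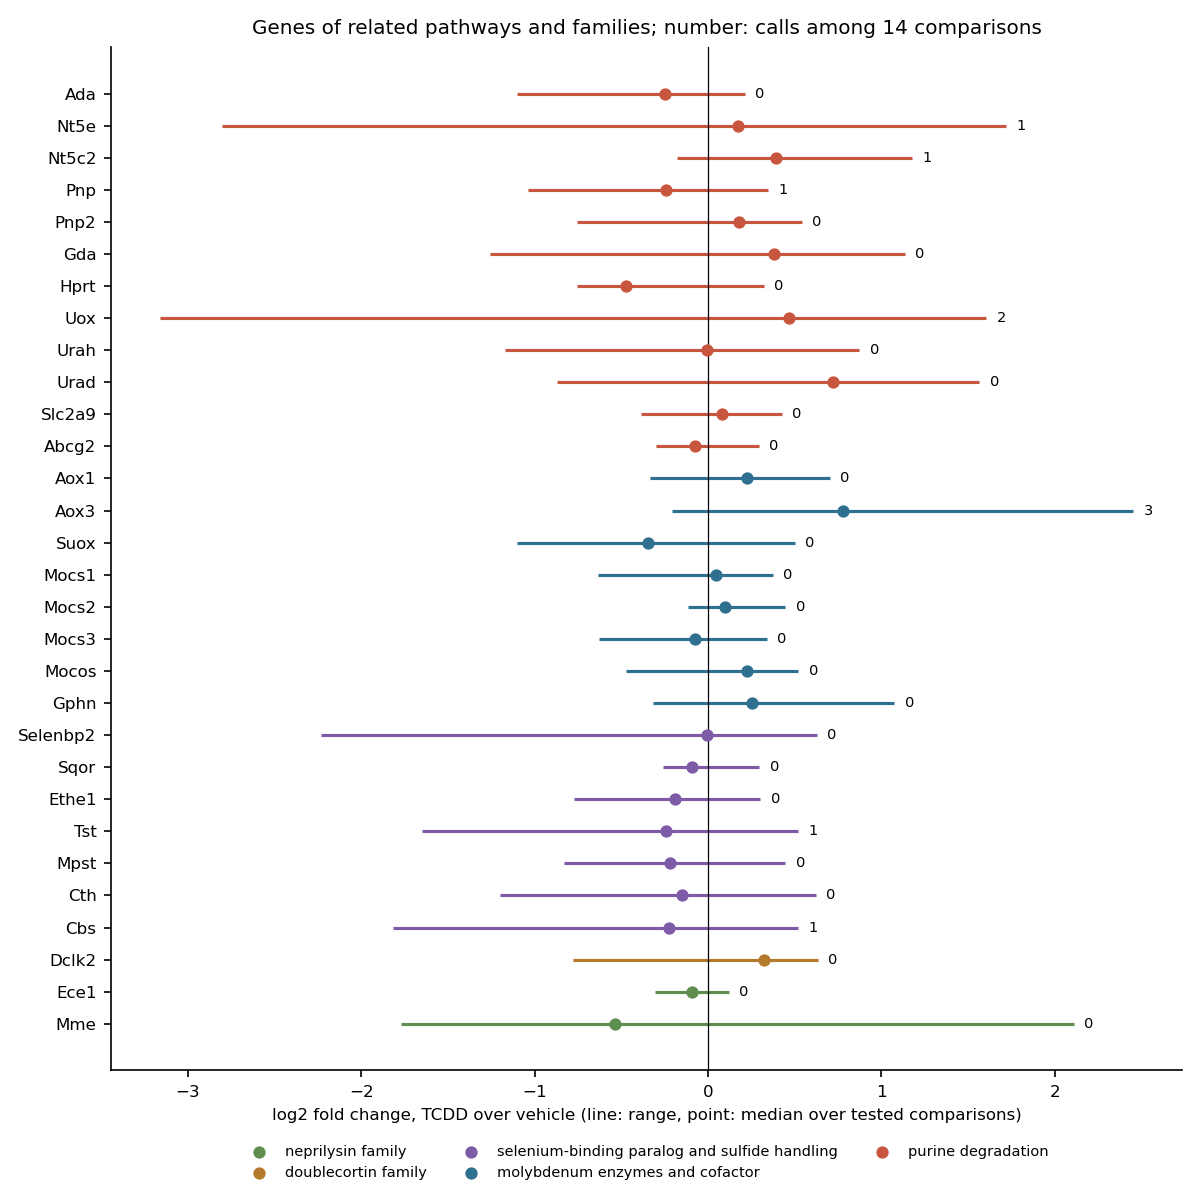
Range (line) and median (point) of the log2 fold change of TCDD over vehicle across the tested comparisons for 30 genes of the pathways and families around the 4 members. The number beside each line is how many of 14 comparisons called the gene, which is 3 for *Aox3*, 2 for *Uox*, 1 for *Nt5e*, *Nt5c2*, *Pnp*, *Tst* and *Cbs*, and 0 for the rest.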

How the data were processed

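RNA-Seq libraries of cultured mouse hepatocytes were deposited as read counts per gene, in 1 file a library. The authors made these counts, per the submitters' processing notes, with FastQC 0.11.3, Trimmomatic 0.39 and STAR 2.7 on GRCm39, and the counts used here are those of uniquely mapped pairs on either strand, not normalized, as deposited. Lines that name no gene held 16.8 to 48.0% of the pairs (median 24.2%) and entered neither library sizes nor tests. Of 55359 gene identifiers, 52083 were matched to symbols of the GRCm38 annotation, whose coordinates are the ones given. The members and all gene lists were chosen with earlier results of these data known.

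Each comparison was fitted alone across all genes that passed edgeR's filterByExpr (minimum count 10, minimum total 15), with the robust quasi-likelihood test of edgeR 4.0.16 in R 4.3.3, TMM scaling and Benjamini-Hochberg adjustment. A gene was called where its adjusted p was under 0.05 and its fold change reached 1.5. Standard errors of log2 fold changes were derived from the F statistic. Members under the filter were compared by an exact permutation test of mean CPM. The model was tested on simulated data. Genes named from each list were the up to 3 called in most comparisons, and those named for likeness were the 3 with the highest Pearson r, some of which are not reported here. Levels per length used the exon length of GRCm38. Alternatives were DESeq2 1.42.0, other scaling, no filter, no fold threshold, a fit of all libraries, a covariate, a replicate block and leaving out libraries.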

Additional observations from a re-analysis of the deposited data

Results flagged for a closer look

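In 16 groups of 4 libraries, 11.9% of those whose values were not all equal, 1 library of a member lay farther from the nearest other, relative to the range of the group, than Dixon's limit for 4 values allows at the 5% level, so chance gives such a library in about 5% of groups. They were 6 groups of *Selenbp1* and *Xdh*, 10 of *Ecel1* and none of *Dclk3*. The excess over 5% came from *Ecel1*. For the other 3 genes, with 36 groups each, the 6 groups are close to what chance gives. *Selenbp1* was low in WT vehicle replicate 4 at 8 h, at 511 CPM against 573 to 579 CPM, a gap that is wide only beside the close agreement of the others. It was high in WT vehicle replicate 3 at 72 h, at 1749 CPM against 261 to 511 CPM, and in PkmΔDRE TCDD replicate 1 at 8 h, at 1556 CPM against 855 to 922 CPM. *Xdh* was high in WT TCDD replicate 3 at 120 h, at 570.5 CPM against 432 to 447 CPM. It was low in PkmΔDRE vehicle replicate 4 at 4 h, at 126.2 CPM against 246 to 266 CPM, and in PkmΔDRE vehicle replicate 1 at 72 h, at 83.2 CPM against 134.7 to 144.3 CPM.

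For *Ecel1*, 8 of the 10 were groups in which 1 library held counts and 3 held none, a pattern that always passes this limit. These were vehicle groups with 0.0321 CPM (WT, 120 h), 0.217 CPM (PkmΔDRE, 4 h), 0.0638 CPM (PkmΔDRE, 8 h), 0.144 CPM (PkmΔDRE, 12 h), 0.0432 CPM (PkmΔDRE, 24 h), 0.646 CPM (PkmΔDRE, 96 h) and 0.0801 CPM (PkmΔDRE, 120 h), and the PkmΔDRE TCDD group at 24 h with 0.232 CPM. In the other 2 groups a TCDD library was far above the rest, at 0.644 CPM against at most 0.0696 CPM (WT, 4 h) and at 1.77 CPM against at most 0.107 CPM (WT, 12 h).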

How the results depend on the processing

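The counts of TCDD comparisons called for *Selenbp1* (7), *Xdh* (6), *Dclk3* (6) and *Ecel1* (0) stayed within 1.5 times under most settings. A fit of all libraries of a label gave 10 for *Xdh* and, for the change of *Dclk3* in vehicle over time, 2 in place of 1, and with no filter on low counts *Ecel1* was called in 3. Without the 4 libraries whose *Cyp1a1* was at odds with their label the counts were 7, 6, 7 and 0. Without PkmΔDRE vehicle replicate 4 at 4 and 96 h, a setting chosen after seeing the data, they were 7, 7, 6 and 0, and the genes called at 96 h with that label went from 11 to 321. Leaving out single libraries gave 6 to 7 for *Selenbp1*, 6 to 7 for *Xdh*, 5 to 7 for *Dclk3* and 0 for *Ecel1*, and for vehicle over time 2 to 4, 2 to 3, 0 to 1 and 0. No difference between the labels was called in any setting.

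The labels give no replicate numbers. With the order of library numbers as a replicate block, the counts were 7, 6, 6 and 0 for TCDD, and for vehicle over time *Selenbp1* went from 3 to 4 calls. Same-numbered libraries had r over 0.1 in 52 of 72 pairs (r from -0.269 to 0.825), and in all 4 pairs of 5 of 18 comparisons. *Pkm* was high in WT replicate 3 with both treatments, at 48 h (1193 and 747 CPM) and 72 h (2127 and 1684 CPM). The order gives no source in the labels and was not taken to pair the libraries.

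Values that turned sign were not called in either form. The interaction of *Selenbp1* at 24 h was -0.66 when the fit held each library's share of pairs outside genes. That of *Xdh* at 96 h was -0.32 without WT vehicle replicate 3, which is also its value without the 4 libraries named above (range -0.32 to 0.31 over libraries left out). The label difference in vehicle was 0.58 for *Selenbp1* at 72 h without WT replicate 3 (range -0.67 to 0.58) and -0.30 for *Xdh* at 96 h without PkmΔDRE replicate 4 (range -0.30 to 0.38). The 8 h value of *Selenbp1* with the label WT ranged from -0.084 (without TCDD replicate 4) to 0.29. The causes were not tested. Of the single values and settings, 1650 kept their side of the threshold, 27 crossed it upward and 41 downward. Without TMM scaling, 34 of the group means moved by more than 1 SD. With Spearman's rho in place of Pearson's r, 2, 0, 2 and 2 of the 3 genes most like each member were shared, and with a pseudocount of 0.25, 3, 2, 2 and 2. Counts limit *Ecel1* throughout, and *Dclk3* in vehicle.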
